A study of Mus musculus with 18 samples.

Results

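The macrophage and myeloid marker genes described here are a fixed list of 37 mouse genes that are used to recognise macrophages, monocytes and other white blood cells of the myeloid line. Probe sets were matched to the list by gene symbol. The list itself was drawn up with earlier results of these data known, and 35 of the 37 had at least 1 probe set that the array annotation assigns to that single symbol. Plek and Lyn had none here. The 35 genes were covered by 49 of the 12422 probe sets that are not controls, and where a gene had several, the one with the highest mean over all arrays stood for it. A filter on dim probe sets kept the 31 genes that were tested and left Aif1, Fcer1g, Csf2rb and Ptpn6 with values but no test.

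Total RNA was measured on 18 Affymetrix arrays, 3 for each of 6 groups made of 3 tissues (extraocular muscle, which moves the eye, leg muscle and heart) and 2 genotypes. All samples came from mice 8 weeks old. The dko groups are mice that the labels call dKO without naming the genes; by common usage in muscular dystrophy research the term stands for loss of both dystrophin and utrophin. The mdx groups, labelled as the controls, carry the mdx mutation of the dystrophin gene. If the dko label has its common meaning, all 6 groups lack dystrophin. No healthy muscle was analysed here. The values are array intensities on a linear scale, which the authors had scaled to about the same mean on every array. Nothing in the labels says whether the samples numbered 1 to 3 in a group came from separate animals, so the p-values measure the spread between these samples, which may in part be technical.

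Macrophages enter dystrophic muscle where fibres die. They engulf debris through scavenger and Fc receptors, digest it in lysosomes, kill microbes with an oxidase at the membrane, and release signals that act on muscle stem cells and fibroblasts. Most of the genes listed are active in several kinds of white blood cell, and some, such as galectin-3, are also made outside the blood lineage, so none of them marks a macrophage alone.

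The arrays were first set against their labels. Utrn, the utrophin gene, read lower in the dko array of all 9 pairs of the same tissue and number on 1 probe set and in 8 of 9 pairs on another. Skeletal muscle fibre genes summed to 12621 to 16964 in dko heart and 21943 to 23061 in mdx heart, while every array of the other 2 tissues summed to at least 96658. In each of the 6 groups array 3 was darker in the middle of its range, with a median intensity of 526 to 574 over the groups against 615 to 672 on arrays 1 and 2. Within a tissue, a dko array and the mdx array with its number deviated from their group means together (correlation across probe sets 0.404 to 0.751 over 9 pairs). Arrays of the same number in different tissues did so too (0.327 to 0.740 over 36 pairs), so the shared deviation was not particular to a tissue. Each test is therefore given without and with the number as a block, a term that compares arrays within a number.

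In both skeletal muscles the marker genes were mostly higher in dko mice, and in heart they were not. Differences are given on the scale log2(intensity + 166.7), dko minus mdx, where the added offset shrinks the differences of dim probe sets. This log2 difference was above 0 for 32 of 35 genes in extraocular muscle with a median of 0.55, and for 33 of 35 in leg with a median of 0.64. Over all probe sets the share above 0 was 48.1% in extraocular muscle and 42.5% in leg, with medians of -0.0099 and -0.048. In heart 18 of 35 were above 0 and the median was 0.0021, beside 46.3% and -0.017 over all probe sets. In bulk tissue more macrophages and more RNA of these genes per cell cannot be told apart.

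**Figure D1:**
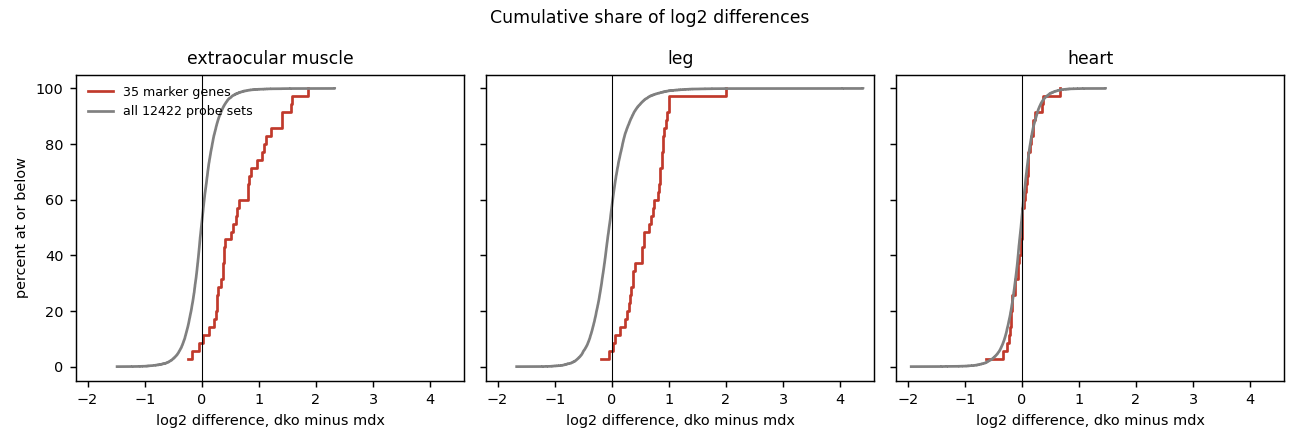
Cumulative share (percent) of log2 differences, dko minus mdx, in extraocular muscle, leg and heart, for the 35 marker genes (red) and all 12422 probe sets (grey). The red curve lies to the right of the grey one in both skeletal muscles, with medians of 0.55 and 0.64, and on it in heart, with a median of 0.0021.

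For 17 of 35 genes all 3 dko arrays of extraocular muscle lay above all 3 mdx arrays, a share of genes to be read beside the 3.08% of all probe sets that did so. In leg this held for 12 of 35 genes, beside 4.08% of all probe sets. In heart it held for 0 of 35, beside 1.92%. The opposite order, all dko arrays below all mdx arrays, held for 0 of 35 genes in each of the 3 tissues (2.93%, 5.37% and 2.71% of all probe sets in extraocular muscle, leg and heart). Leaving out an array can only keep or raise such a count. The leg count was 23 of 35 without dko array 1 (8.86% of all probe sets) and 19 of 35 without mdx array 3 (10.5%). It was 12 without dko array 2 (6.5%) and 17 without dko array 3 (8.36%). Without mdx array 1 it was 16 (7%), and without mdx array 2 it was 14 (6.53%). The 8 genes with dko arrays above in both muscles were Cd68, Mpeg1, Fcgr2b, Lilr4b, Csf1r, Ptprc, Cd52 and Ms4a6c.

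Between genotypes, single genes passed the test across all probe sets (limma, Benjamini-Hochberg adjusted p under 0.05) with the replicate number as a block, and on all 18 arrays 0 passed without it. Without the block 0 of 31 genes passed in extraocular muscle (0.0225% of all 8888 probe sets tested did), although 13 had an unadjusted p under 0.05 (2.21% of all). With the block 4 rose in dko extraocular muscle, namely Lgals3, Lilr4b, Mpeg1 and Ms4a6c, beside 0.135% of all probe sets that rose. In leg 0 of 31 passed without the block (0.0563% of all), with 17 at an unadjusted p under 0.05 (6.26% of all), and 3 rose with it, namely Cd53, Csf1r and Ms4a6c, beside 1.01% of all. In heart 0 of 31 passed in either fit (0% of all in both), with 0 genes without the block and 1 with it at an unadjusted p under 0.05 (1.46% and 5.56% of all). Leaving out all arrays of any 1 number ended every one of these calls in both muscles, and the calls with the block over all probe sets then numbered 0 in extraocular muscle and 0 to 3 in leg. The differences themselves ranged from 1.54 to 2.16 for Lgals3, 1.34 to 1.78 for Lilr4b, 1.21 to 1.56 for Mpeg1 and 0.99 to 1.32 for Ms4a6c in extraocular muscle, and from 1.37 to 2.67 for Cd53, 0.68 to 1.25 for Csf1r and 0.88 to 0.99 for Ms4a6c in leg. Without mdx leg array 3 alone, 1 gene, Cd53, passed in leg with no block.

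**Figure D2:**
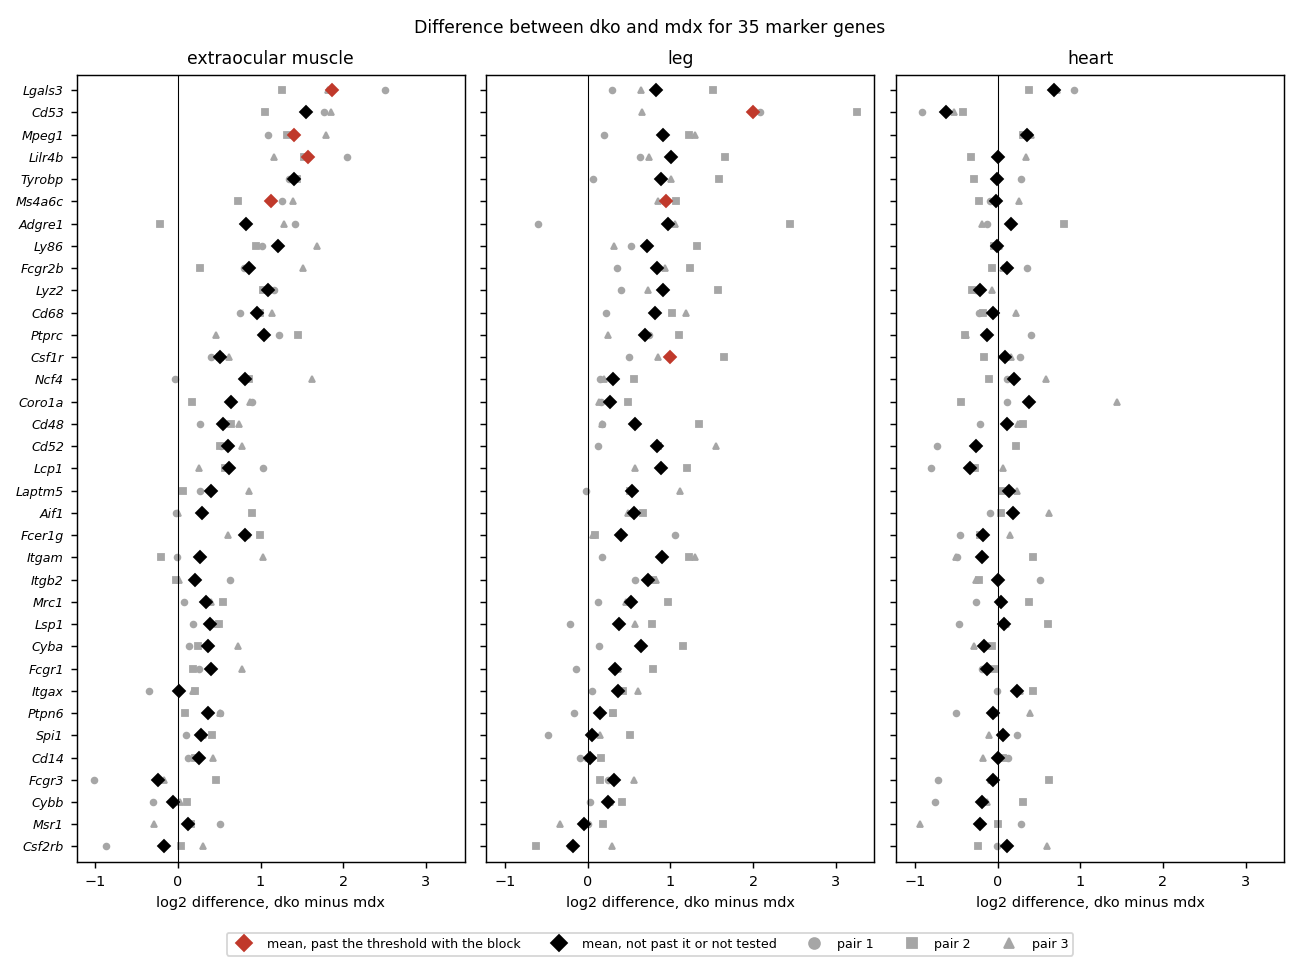
Log2 difference, dko minus mdx, of the 35 marker genes in extraocular muscle, leg and heart, ordered by the mean over the tissues. Diamonds are means of 3 pairs (red where the adjusted p with the block is under 0.05), and grey symbols are the pairs of arrays with the same number. Most diamonds lie right of 0 in both skeletal muscles and around 0 in heart, where only Lgals3, Mpeg1 and Laptm5 were higher in all 3 pairs. The share of all probe sets higher in all 3 pairs was not computed.

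Lysosomal, granule and cytoplasmic proteins of macrophages came first by size, with a median log2 difference of 1.10 in extraocular muscle, 0.82 in leg and 0.19 in heart over 5 genes. Lgals3 encodes galectin-3, a sugar-binding protein that activated macrophages make in quantity. Lgals3 read 2590.5, 3409 and 3879 in dko extraocular muscle, against 320.5, 1324 and 984 in mdx extraocular muscle. All dko values lay above all mdx values, and the difference of 1.86 ± 0.26 (log2, SE), or 3.63-fold, passed with the block (adjusted p = 0.0333; 0.498 without it). Lgals3 read 4773, 8584 and 11425 in dko leg muscle, against 3852, 2885 and 7229 in mdx leg muscle. The leg groups overlapped through mdx array 3, and the difference of 0.82 ± 0.26 missed the threshold (adjusted p = 0.145 with the block, 0.933 without it). Lgals3 read 783, 708 and 1442 in dko heart, against 333, 506 and 810.0 in mdx heart. This was the largest difference of the list in heart, 0.68 ± 0.26, with dko higher in 3 of 3 pairs but overlapping groups, and it did not pass (with the block, adjusted p = 0.86).

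Mpeg1 encodes perforin-2, a pore-forming protein of macrophages that attacks engulfed bacteria. Mpeg1 read 4881, 4201 and 4173 in dko extraocular muscle, against 2205, 1577 and 1085 in mdx extraocular muscle. Mpeg1 read 5709.9, 8292 and 9886 in dko leg muscle, against 4971, 3452 and 3924 in mdx leg muscle. The dko arrays lay above the mdx arrays in both muscles, and the gene rose with the block in extraocular muscle (1.40 ± 0.22, adjusted p = 0.0481; 0.64 without the block). In leg its difference of 0.91 ± 0.22 did not pass (with the block, adjusted p = 0.0731). Mpeg1 read 2727, 2063 and 1073 in dko heart, against 2114, 1645 and 769 in mdx heart. In heart both genotypes read lowest on array 3 and the groups overlapped, although each dko array was the higher of its pair (difference 0.35 ± 0.22, adjusted p = 0.943).

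Lyz2, the lysozyme of macrophages and neutrophils, had the highest mean intensity of the list over all arrays, although intensities of different probe sets are not comparable amounts of RNA. Lyz2 read 13332, 15999.8 and 11531 in dko extraocular muscle, against 5842, 7723 and 5345 in mdx extraocular muscle. Lyz2 read 9868, 19965 and 18883 in dko leg muscle, against 7401, 6565 and 11363 in mdx leg muscle. Lyz2 read 4204, 5587 and 5199.8 in dko heart, against 5077, 6945 and 5473 in mdx heart. Only in extraocular muscle did all dko arrays of Lyz2 lie above all mdx arrays, since leg dko array 1 fell below leg mdx array 3, and in heart each dko array was the lower of its pair. The differences of 1.10 ± 0.20 in extraocular muscle, 0.90 ± 0.20 in leg and -0.21 ± 0.20 in heart did not pass with the block (adjusted p = 0.0938, 0.0581 and 0.953). Cd68, a lysosomal glycoprotein widely used to stain macrophages, averaged 2429.8 ± 386 in dko extraocular muscle and 1196 ± 390.0 in mdx extraocular muscle, and 3990.0 ± 1217 in dko and 2184 ± 533 in mdx leg (SD, n = 3 each). Its groups did not overlap in either muscle, but the differences of 0.96 and 0.81 did not pass with the block (adjusted p = 0.152 and 0.072). Aif1, a calcium-binding protein of macrophages and microglia, was too dim to be tested.

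**Figure D3:**
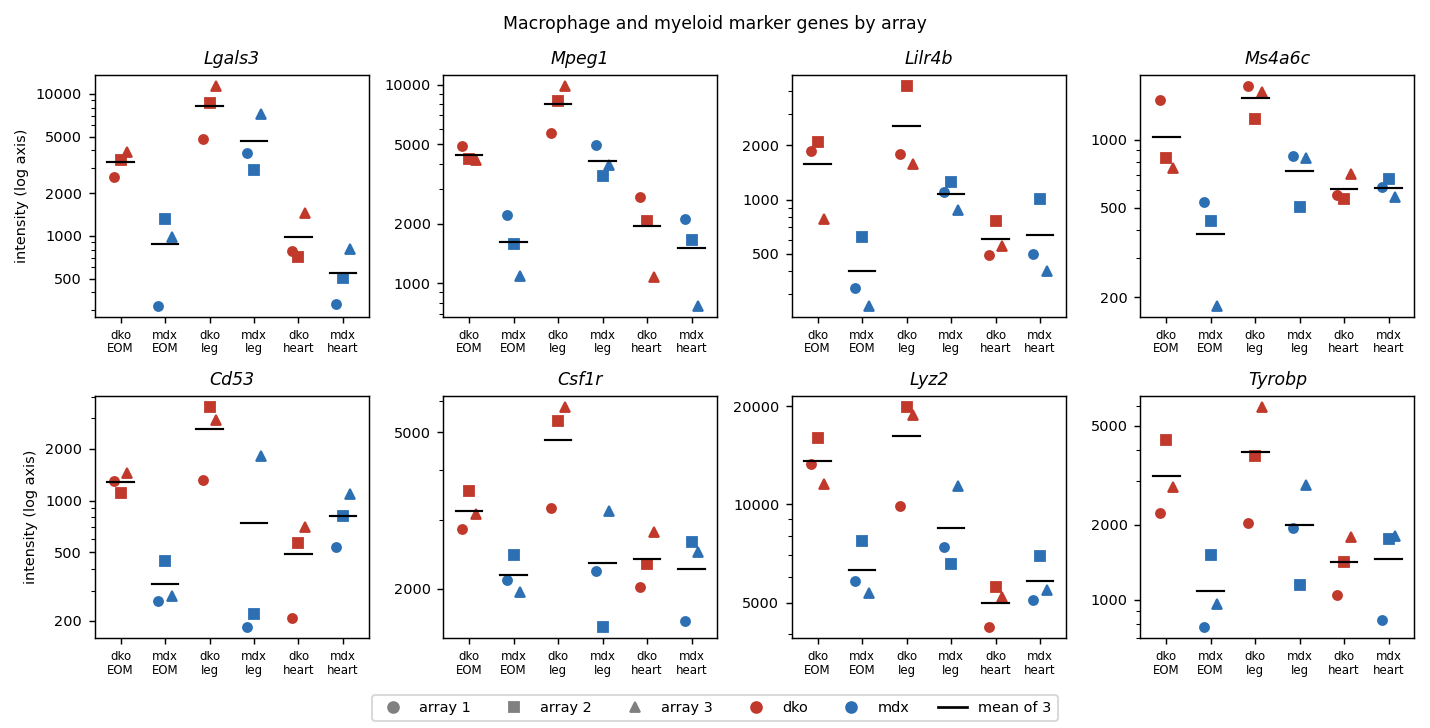
Intensity (log axis) of 8 marker genes on every array, by group (EOM, extraocular muscle); red is dko, blue is mdx, the symbol gives the array number and the bar the mean of 3. In extraocular muscle the 3 dko arrays lie above the 3 mdx arrays for all 8 genes, in leg this holds for Mpeg1, Lilr4b, Ms4a6c and Csf1r, and in heart the genotypes overlap for all 8.

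Fc receptors and their partners take up antibody-coated particles or set the threshold for doing so. Over 6 genes the median difference was 0.84 in extraocular muscle, 0.62 in leg and -0.031 in heart. Lilr4b is an immunoglobulin-like receptor of myeloid cells with a close paralogue, which its probe set may also detect. Lilr4b read 1865, 2087 and 783 in dko extraocular muscle, against 325, 617 and 257 in mdx extraocular muscle. Lilr4b read 1796, 4287 and 1574 in dko leg muscle, against 1105, 1248 and 878 in mdx leg muscle. Lilr4b read 494, 764 and 550.0 in dko heart, against 497, 1000.5 and 399.7 in mdx heart. The genotypes were separate in both muscles and overlapped in heart, where the difference was 0.0021. Lilr4b rose with the block in extraocular muscle (1.58 ± 0.23, 2.99-fold, adjusted p = 0.0371; 0.64 without the block), and its leg difference of 1.01 ± 0.23 did not pass (adjusted p = 0.0713).

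Tyrobp encodes the adapter DAP12, which carries the signal of many activating myeloid receptors. Tyrobp read 2219.7, 4385 and 2837 in dko extraocular muscle, against 775, 1508 and 957 in mdx extraocular muscle. Tyrobp read 2035, 3772 and 5972 in dko leg muscle, against 1943, 1143 and 2898 in mdx leg muscle. Tyrobp read 1046, 1411 and 1782 in dko heart, against 831, 1752 and 1794 in mdx heart. All dko values were above all mdx values in extraocular muscle, whereas in leg the dko array 1 lay below the mdx array 3 and in heart the groups overlapped. Neither the difference of 1.40 ± 0.24 in extraocular muscle nor that of 0.88 ± 0.24 in leg passed (adjusted p = 0.0839 and 0.0974 with the block). The Fc receptor Fcgr2b, the inhibitory one, was separate between genotypes in both muscles (differences 0.86 and 0.84), and Fcgr1, the high-affinity receptor, in extraocular muscle only (0.41), but neither gene passed. Fcgr3, a low-affinity activating receptor, had a difference of -0.24 in extraocular muscle and 0.32 in leg, with overlapping groups. The shared signalling chain Fcer1g read 239, 275 and 142 in dko extraocular muscle and 61, 55.1 and 35.6 in mdx extraocular muscle, separate but too dim to be tested. It overlapped between genotypes in leg (316, 212 and 92.3 in dko, 66.1, 192 and 82.1 in mdx) and in heart (55.6, 115 and 83.6 in dko, 138, 161 and 58.3 in mdx).

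The lineage factor and growth factor receptors did not move together. Csf1r is the receptor for macrophage colony-stimulating factor, on which macrophages depend for survival. Csf1r read 2831, 3549 and 3100.0 in dko extraocular muscle, against 2108, 2439.9 and 1965 in mdx extraocular muscle. Csf1r read 3212, 5347 and 5809 in dko leg muscle, against 2216, 1599 and 3151 in mdx leg muscle. Csf1r read 2024, 2316 and 2792 in dko heart, against 1659, 2625 and 2475 in mdx heart. The dko arrays lay above the mdx arrays in both muscles, in leg by a narrow margin between dko array 1 and mdx array 3, and the genotypes overlapped in heart. Csf1r rose with the block in leg (1.00 ± 0.20, 2.0-fold, adjusted p = 0.0456; 0.331 without the block) and did not pass in extraocular muscle (0.51 ± 0.20, adjusted p = 0.531). A second, weaker Csf1r probe set had a difference of -0.0078 in leg. Spi1, the PU.1 transcription factor that sets up the myeloid lineage, averaged 1088 ± 206 in dko and 1063 ± 328 in mdx leg (SD, n = 3 each), a difference of 0.055 ± 0.24, and 0.27 in extraocular muscle; neither passed. Csf2rb, the shared chain of the receptors for GM-CSF and related cytokines, was too dim to be tested and was below 0 in both muscles (-0.17 and -0.18).

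Among receptors for microbial patterns and debris, Ly86 stood apart from the others. It encodes MD-1, a partner of a Toll-like receptor relative on immune cells. Ly86 read 1052, 876 and 1084 in dko extraocular muscle, against 437, 374 and 223 in mdx extraocular muscle. Ly86 read 1734, 1609 and 1134 in dko leg muscle, against 1159, 542 and 880.3 in mdx leg muscle. Ly86 read 717, 620.0 and 720.0 in dko heart, against 724, 643 and 710.0 in mdx heart. The genotypes were well separated in extraocular muscle, overlapped in leg between dko array 3 and mdx array 1, and lay in 1 narrow band in heart. The differences of 1.21 ± 0.21 in extraocular muscle and 0.72 ± 0.21 in leg did not pass with the block (adjusted p = 0.0816 and 0.11). Cd14, which hands bacterial lipopolysaccharide to its receptor, was bright but differed by 0.25 ± 0.27 in extraocular muscle, 0.024 ± 0.27 in leg and 0.0044 ± 0.27 in heart (SE without the block). The scavenger receptor Msr1 differed by 0.12 in extraocular muscle and -0.049 in leg. Mrc1, the mannose receptor of resident and repair macrophages, differed by 0.34 and 0.52, with separate groups in leg, and did not pass.

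Adhesion receptors had a median difference of 0.24 in extraocular muscle, 0.81 in leg and 0.084 in heart over 4 genes. Adgre1 encodes the surface protein that the F4/80 antibody detects on mouse macrophages. Adgre1 read 1026, 408 and 866 in dko extraocular muscle, against 281, 501 and 258 in mdx extraocular muscle. Adgre1 read 527, 1858 and 1675 in dko leg muscle, against 884, 206 and 719 in mdx leg muscle. Adgre1 read 151, 371 and 559 in dko heart, against 180.0, 142 and 662 in mdx heart. The genotypes overlapped in all 3 tissues, the dko array was the lower of its pair for number 2 in extraocular muscle and number 1 in leg, and the leg difference of 0.97 ± 0.50 missed the threshold (adjusted p = 0.346 with the block). Itgam and Itgb2 encode the chains of the integrin Mac-1, through which macrophages and neutrophils adhere. Both were separate between genotypes in leg (0.90 and 0.73) and overlapped in extraocular muscle (0.27 and 0.21). Itgax, the integrin chain of dendritic cells and some macrophages, differed by 0.015 and 0.36, and none of these 3 genes passed.

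The 6 leukocyte membrane proteins had differences above 0 in both muscles, with medians of 0.83 in extraocular muscle and 0.77 in leg, and a median of -0.075 in heart. Cd53 encodes a tetraspanin found on nearly all white blood cells. Cd53 read 1290.1, 1100.1 and 1445 in dko extraocular muscle, against 263, 444 and 281 in mdx extraocular muscle. Cd53 read 1322, 3508 and 2938 in dko leg muscle, against 184, 219 and 1806 in mdx leg muscle. Cd53 read 209, 567 and 702 in dko heart, against 541, 813 and 1093 in mdx heart. In extraocular muscle the genotypes were separate, in leg the mdx arrays 1 and 2 were very low while mdx array 3 read above dko array 1, and in heart each dko array was the lower of its pair. Cd53 rose with the block in leg (2.00 ± 0.38, 3.99-fold, adjusted p = 0.0415; 0.331 without the block). The leg difference was 2.81 without mdx array 3, and 1.37 without both arrays numbered 2. Its difference of 1.55 ± 0.38 in extraocular muscle did not pass (adjusted p = 0.284), nor did that in heart, -0.62 ± 0.38, the lowest of the list there (adjusted p = 0.943).

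Ms4a6c, a membrane protein of the family that holds the B cell antigen Ms4a1, was the only member that rose with the block in both muscles. Ms4a6c read 1499.9, 832 and 752 in dko extraocular muscle, against 531, 435 and 183 in mdx extraocular muscle. Ms4a6c read 1739.9, 1234 and 1636 in dko leg muscle, against 844, 504 and 833 in mdx leg muscle. Ms4a6c read 566, 545 and 702 in dko heart, against 614, 669 and 559.6 in mdx heart. The genotypes were separate in both muscles and overlapped in heart, and the differences of 1.13 ± 0.16 in extraocular muscle and 0.94 ± 0.16 in leg passed with the block (adjusted p = 0.0333 and 0.0278; 0.597 and 0.366 without it). Its probe set carries the suffix that the array's maker gives to sets matching a family of transcripts, so relatives may add to the reading. Ptprc, the common leukocyte antigen and a receptor phosphatase, read 322, 371 and 245 in dko extraocular muscle and 42.8, 29.2 and 132 in mdx extraocular muscle, and 575, 658 and 667 in dko and 278, 218 and 539 in mdx leg. The groups of Ptprc were separate in both muscles, but the differences of 1.05 and 0.69 missed the threshold (adjusted p = 0.234 and 0.17 with the block). The small glycoprotein Cd52 (0.61 and 0.84), the adhesion molecule Cd48 (0.55 and 0.57) and the lysosomal membrane protein Laptm5 (0.40 and 0.53) did not pass either. The Laptm5 probe set used here carries the same family suffix as that of Ms4a6c. A second Laptm5 probe set, without it, gave larger differences of 1.10 in extraocular muscle and 1.19 in leg, also not past the threshold. Its genotypes were separate in extraocular muscle (3058, 2728 and 3239.5 in dko, 934, 1423 and 1675 in mdx) and overlapped in leg.

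Of the subunits of the phagocyte NADPH oxidase, which makes superoxide, Cyba is the small membrane chain. Cyba read 3459, 3649.8 and 4827 in dko extraocular muscle, against 3142, 3049 and 2850.2 in mdx extraocular muscle. Cyba read 3556, 5053 and 7296 in dko leg muscle, against 3219, 2193 and 4594 in mdx leg muscle. Cyba read 5477, 4483 and 4709 in dko heart, against 6105, 4708 and 5790.4 in mdx heart. Cyba was separate between genotypes in extraocular muscle, overlapped in leg, and was lower in every dko heart array than in its mdx partner, but the differences of 0.37 ± 0.19, 0.64 ± 0.19 and -0.17 ± 0.19 in the 3 tissues did not pass. The large catalytic chain Cybb differed by -0.053 in extraocular muscle and 0.24 in leg, and the cytosolic subunit Ncf4 by 0.82 and 0.30, with overlapping groups in both muscles.

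Signalling and cytoskeletal proteins of leukocytes were above 0 for all 4 measured genes in both muscles, with medians of 0.50 and 0.32, and 0 passed. Lcp1 encodes L-plastin, which bundles actin in white blood cells. Lcp1 read 2440.2, 2167 and 1223 in dko extraocular muscle, against 1106, 1410.1 and 996 in mdx extraocular muscle. Lcp1 read 3324, 3251 and 3498 in dko leg muscle, against 1741, 1323 and 2292 in mdx leg muscle. Lcp1 read 1228, 1775 and 1644 in dko heart, against 2272, 2174 and 1560.1 in mdx heart. Its genotypes were separate in leg (0.88 ± 0.20, adjusted p = 0.0713 with the block) and overlapped in extraocular muscle (0.62 ± 0.20) and in heart (-0.34 ± 0.20).

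Coro1a encodes coronin-1A, an actin regulator of white blood cells. Coro1a read 1209, 1368 and 999 in dko extraocular muscle, against 574, 1199 and 467 in mdx extraocular muscle. Coro1a read 1552, 2029 and 1318 in dko leg muscle, against 1368, 1397 and 1183 in mdx leg muscle. Coro1a read 313, 639.9 and 1249.5 in dko heart, against 275, 927 and 353 in mdx heart. All 3 pairs were higher in dko in both muscles, although the groups overlapped, and the heart difference of 0.38 ± 0.30 was made of pairs in both directions, the pair numbered 3 being the widest. Lsp1, a leukocyte actin-binding protein, differed by 0.39 in extraocular muscle and 0.38 in leg. Ptpn6, the phosphatase SHP-1 that restrains leukocyte receptors, was too dim to be tested.

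The pairs of a tissue did not contribute evenly. The median difference over the 35 genes was 0.51, 0.51 and 0.74 in the extraocular pairs numbered 1, 2 and 3, and 0.17, 0.97 and 0.58 in the leg pairs. In heart it was -0.089, -0.041 and 0.060. The leg pair numbered 2 held the largest of the 3 differences for 24 of 35 genes and the pair numbered 1 for 1 of 35. In all 3 pairs dko was higher for 25 of 35 genes in extraocular muscle, 26 of 35 in leg and 3 of 35 in heart, the last being Lgals3, Mpeg1 and Laptm5. For these pair counts no share over all probe sets was computed, so they have no background.

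Averaged over the 3 tissues, the difference was above 0 for 32 of 35 genes, beside 42.7% of all probe sets, with a median of 0.39. Of the 31 tested, 0 passed without the block (0.09% of all probe sets passed), with 16 at an unadjusted p under 0.05 (4.95% of all), and 7 rose with it, beside 0.551% of all that rose. These were Lgals3 (1.12 ± 0.15, adjusted p = 0.0171), Mpeg1 (0.89 ± 0.12, 0.0187), Lilr4b (0.86 ± 0.13, 0.0281), Tyrobp (0.76 ± 0.14, 0.0441), Ms4a6c (0.68 ± 0.091, 0.0171), Ly86 (0.64 ± 0.12, 0.0473) and Lyz2 (0.60 ± 0.11, 0.0497). Lgals3 and Mpeg1 were higher in 9 of 9 pairs, a count for which no share over all probe sets was computed. Both this count and the blocked fit of the average take the 9 pairs as independent. They may not be, since extraocular muscle, leg and heart samples of 1 number could come from the same mouse. The adjusted p-values of the average are to be read with this limit. Cd68 missed the threshold with an adjusted p of 0.0501. All 7 calls were lost when the arrays of any 1 number were left out. The average joins unlike tissues: 5 of the 7 had heart differences between -0.21 (Lyz2) and 0.0021 (Lilr4b).

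Whether the genotype difference itself differed between tissues was tested directly, and 0 of 31 genes passed in any of the 3 comparisons, without or with the block. The background was 0% of probe sets in every one of these comparisons without the block, and with it 0.0675% for heart minus leg, 0.0338% for extraocular muscle minus leg and 0% for extraocular muscle minus heart. The dko minus mdx difference in heart exceeded that in leg for 3 of 35 genes, beside 53.3% of all probe sets, and the median gap was -0.56 (0.023 over all). An unadjusted p under 0.05 was reached by 11 genes without the block (2.91% of all) and 14 with it (11.1%). Cd53 had the largest gap, -2.62 ± 0.54, with an adjusted p of 0.151 with the block. The difference was higher in extraocular muscle than in heart for 32 of 35 genes, beside 51.4% of all probe sets, with a median gap of 0.53 and the smallest adjusted p with the block at 0.37, for Ms4a6c. Between the 2 skeletal muscles the median gap, extraocular minus leg, was 0.024, with 20 of 35 genes above 0 (54.5% of all), and the smallest adjusted p with the block 0.453, for Lgals3 (1.04 ± 0.37). These comparisons share arrays with the differences in each tissue and add no independent evidence.

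The levels of the genes also differed by tissue. Dko leg muscle had the highest group mean for 30 of 35 genes, and the lowest was in mdx extraocular muscle for 21 and in mdx heart for 10. The same count was not made over all probe sets, so these numbers have no background share. Summed over the 35 genes, the intensity per array was 62993, 66402 and 58616 in dko extraocular muscle and 37232, 38769.6 and 28701 in mdx extraocular muscle. It was 66969, 99990.4 and 109395 in dko and 55933, 41961 and 63700.3 in mdx leg, and 37901, 40322 and 37649 in dko and 40330.5, 41083 and 36768 in mdx heart. The sums of the genotypes were thus separate in both skeletal muscles and overlapped in heart, where all 6 arrays lay close to the mdx extraocular level.

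**Figure D4:**
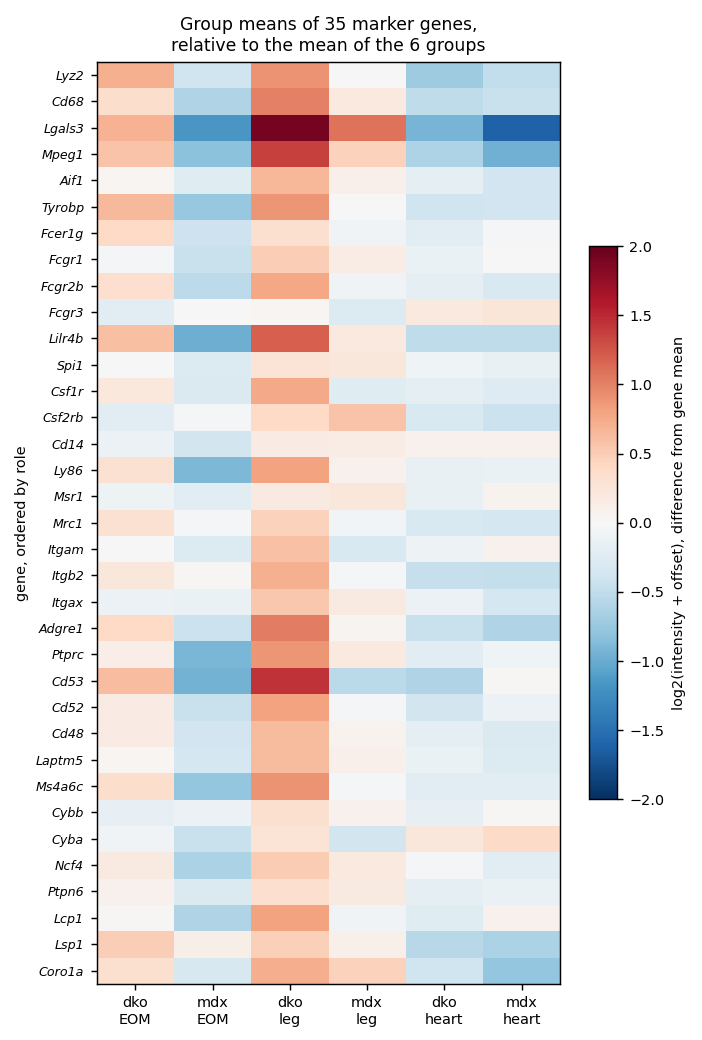
Group means of the 35 marker genes on the scale log2(intensity + offset), each relative to that gene's mean over the 6 groups (EOM, extraocular muscle; red higher, blue lower; rows ordered by role). Dko leg is the reddest column, highest for 30 of 35 genes, and mdx extraocular muscle holds the lowest mean for 21. The same count over all probe sets was not made.

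In dko mice the gap between heart and leg was wide. Of 31 genes 16 were lower in dko heart than in dko leg without the block (5.54% of all probe sets were lower), and 22 with it (11.5% of all). The unblocked count was 9 without dko leg array 2, 10 without dko leg array 3, 6 without all arrays numbered 1 and 0 without all arrays numbered 2. Lgals3 differed most, by -2.85 ± 0.44 (adjusted p = 0.000355), followed by Cd53 (-2.05 ± 0.54, 0.0194), Mpeg1 (-1.99 ± 0.36, 0.00127) and Lilr4b (-1.70 ± 0.40, 0.00967). In mdx mice 2 of 31 were lower in heart than in leg without the block (4.93% of all), Lgals3 (-2.70 ± 0.44, adjusted p = 0.000603) and Mpeg1 (-1.43 ± 0.36, 0.0162). With the block 6 were lower in mdx heart (11.1% of all) and Cyba was higher (0.75 ± 0.22, adjusted p = 0.0253; 11.7% of all were higher). The unblocked mdx count was 1 without leg array 1 or heart array 3 and 4 without leg array 3.

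Between the skeletal muscles of mdx mice 3 of 31 genes were lower in extraocular muscle than in leg without the block (1.45% of all probe sets) and 7 with it (5.91%). The 3 were Lgals3 (-2.25 ± 0.44, adjusted p = 0.00856), Ptprc (-1.10 ± 0.24, 0.0173) and Ly86 (-0.98 ± 0.24, 0.0272). A single gene passed without mdx extraocular array 2 or mdx leg array 3, and 0 without all arrays numbered 1 or all numbered 2. In dko mice 0 differed without the block (2.14% of all) and 7 had an unadjusted p under 0.05 (10.4% of all), while with the block Lgals3 (-1.22 ± 0.29, adjusted p = 0.0176) and Itgax (-0.65 ± 0.17, 0.0304) were lower in extraocular muscle (3.54% of all). Against heart, dko extraocular muscle was higher for 3 genes without the block (4.23% of all), Lyz2 (1.41 ± 0.28, adjusted p = 0.00369), Lgals3 (1.63 ± 0.44, 0.0317) and Lsp1 (1.05 ± 0.28, 0.0274), and for 8 with it (9.26%); the unblocked count was 1 without dko extraocular array 2. In mdx mice 0 of 31 differed between extraocular muscle and heart without the block (7.05% of all), with 5 at an unadjusted p under 0.05 (16.8% of all). With the block Cd14, Ly86, Ptprc and Cyba were lower in mdx extraocular muscle than in mdx heart (9.17% of all) and Lsp1 was higher (8.49%).

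The promoters of the genes that rose with the block in extraocular muscle or leg are shown, so far as the RefSeq promoter table (GRCm38.p6) holds them. Those of Itgam and Mrc1, which were separate between genotypes in leg, are shown as examples that hold a match to the letters below. Cd68, Fcgr2b, Ptprc and Lcp1 were also separate in leg, hold no match and are not shown. Each line gives the 150 bases before the annotated start, written 5′ to 3′ on the gene's strand. Capitals mark the letters GAGGAA or its reverse complement TTCCTC, the core of the box that PU.1, the factor encoded by Spi1, binds.
Lgals3 (chr14:47373710-47373859, plus strand): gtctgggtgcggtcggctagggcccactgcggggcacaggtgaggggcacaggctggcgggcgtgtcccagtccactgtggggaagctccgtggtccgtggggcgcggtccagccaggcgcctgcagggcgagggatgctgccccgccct
Mpeg1 (chr19:12460620-12460769, plus strand): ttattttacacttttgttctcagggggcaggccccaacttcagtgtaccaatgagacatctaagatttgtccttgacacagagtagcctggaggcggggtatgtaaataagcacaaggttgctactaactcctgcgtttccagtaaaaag
Ms4a6c (chr19:11469218-11469367, plus strand): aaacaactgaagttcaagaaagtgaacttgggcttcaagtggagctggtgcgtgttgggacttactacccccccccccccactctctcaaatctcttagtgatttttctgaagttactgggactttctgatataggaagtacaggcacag
Lilr4b (chr10:51480462-51480611, plus strand): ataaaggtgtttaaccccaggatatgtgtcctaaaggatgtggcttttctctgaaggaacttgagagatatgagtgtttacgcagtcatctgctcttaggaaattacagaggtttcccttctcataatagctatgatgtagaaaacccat
Cd53 (chr3:106790150-106790299, minus strand): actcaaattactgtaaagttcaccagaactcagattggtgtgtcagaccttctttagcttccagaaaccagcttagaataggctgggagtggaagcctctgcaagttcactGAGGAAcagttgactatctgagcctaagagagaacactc
Itgam (chr7:128062490-128062639, plus strand): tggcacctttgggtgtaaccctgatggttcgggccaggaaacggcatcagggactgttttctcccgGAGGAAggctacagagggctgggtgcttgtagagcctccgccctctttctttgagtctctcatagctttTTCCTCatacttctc
Mrc1 (chr2:14229264-14229413, plus strand): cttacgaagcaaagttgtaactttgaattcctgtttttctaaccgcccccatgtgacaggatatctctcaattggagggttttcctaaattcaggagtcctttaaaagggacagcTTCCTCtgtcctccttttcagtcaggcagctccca
The table held promoters for 25 of the 37 genes, 29 in all, and 9 of these (31%) carried the core on either strand within the 150 bases, against 14.5% of all 32851 promoters in the table. The match starts 39 bases before the start in Cd53, 84 and 15 bases before it in Itgam, and 35 bases before it in Mrc1. Lgals3, Mpeg1, Ms4a6c and Lilr4b hold no match in this window. A match of 6 letters is not a binding site.

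Of 40 phagocyte pathway partners (oxidase subunits, kinases, cytokine receptors, chemokine receptors and pattern receptors outside the list), 29 were measured, and their median differences were 0.18 in extraocular muscle, 0.19 in leg and 0.091 in heart. Without the block 0 of 27 tested passed in any tissue (0.0225%, 0.0563% and 0% of all probe sets did in extraocular muscle, leg and heart). With it Sirpa, a receptor that reads the don't-eat-me signal on other cells, rose in leg, beside 1.01% of all probe sets that rose. Sirpa read 1069, 1204.5 and 2377 in dko leg, against 231, 141 and 1491 in mdx leg. The groups overlapped through mdx array 3, and the difference was 1.47 (adjusted p = 0.0327 with the block, 0.46 without it). Averaged over the tissues Sirpa (0.85, adjusted p = 0.0393) and the chemokine receptor Ccr1 (0.54, 0.0453) rose with the block, beside 0.551% of all. Of 9 measured markers of resident or alternatively activated macrophages 0 passed in any tissue in either fit, with medians of -0.16 in extraocular muscle, 0.20 in leg and -0.092 in heart. With the block 0.158%, 1.2% and 0% of all probe sets passed in these tissues, so 0 among so few genes is near the background.

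Few markers of other white blood cells could be tested, and 0 passed. The lists of neutrophils (12 genes measured), T cells (11), B cells (7), natural killer and cytotoxic cells (7) and mast cells (7) had median differences of -0.08, 0.10, 0.079, 0.12 and 0.034 in extraocular muscle. In leg the medians were -0.018, -0.12, 0.041, -0.15 and 0.098 in the same order, and 0 genes of these 5 lists passed in any tissue in either fit. Over all probe sets 0.0225% passed in extraocular muscle, 0.0563% in leg and 0% in heart without the block, and 0.158%, 1.2% and 0% with it. Only 2 to 5 genes of each list were bright enough to be tested, so 0 calls do not set these lists apart from that background. A p that misses the threshold does not show that these cells did not differ. The summed intensity of the T cell list was 1935 to 2812 in dko extraocular muscle and 1358 to 2249 in mdx extraocular muscle, and 1665 to 2675 in dko and 1830.2 to 3215 in mdx leg. The neutrophil list summed to 2999.5 to 4506 in dko and 2854 to 4626 in mdx leg. The mast cell list was the exception by order of the arrays, with 4315, 4577 and 5338 in dko and 3147, 2894 and 2897 in mdx leg, where 3 of its 7 genes had all dko arrays above all mdx arrays, beside 4.08% of all probe sets. No gene of these lists read 0 on any array. The part of mast cells in the leg result was not tested.

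**Figure D5:**
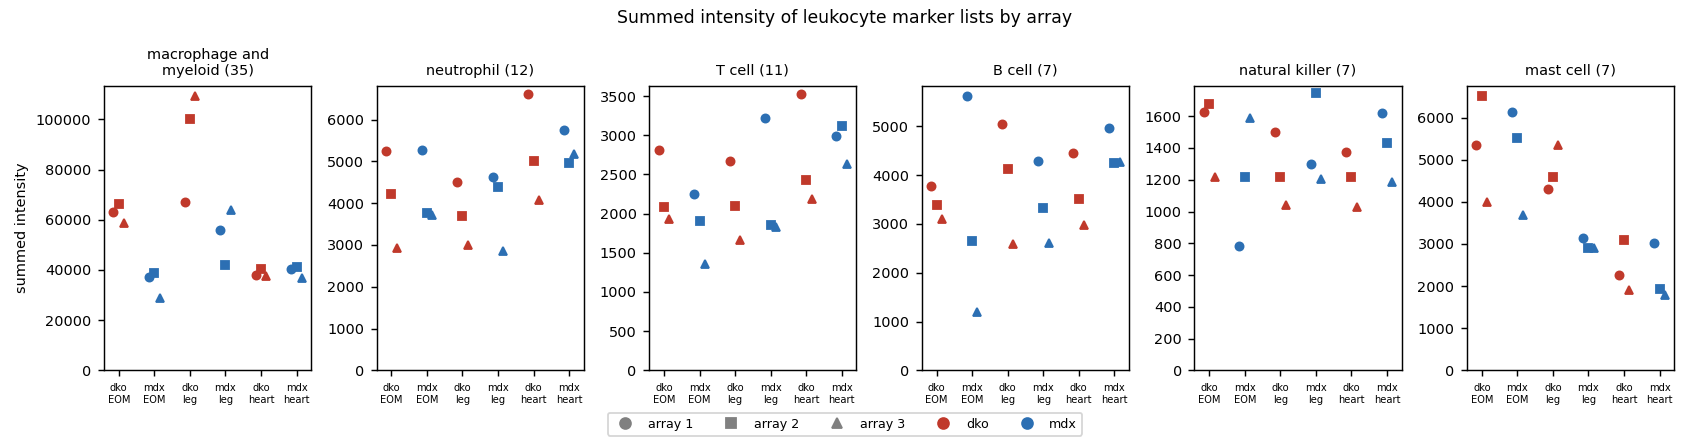
Summed intensity (linear axes from 0, each panel with its own scale) of 6 marker lists on every array, by group (EOM, extraocular muscle; the number of genes summed in brackets); red is dko, blue is mdx, and the symbol gives the array number. The macrophage and myeloid sums of the genotypes are separate in both skeletal muscles, the mast cell sums in leg only, and the other 4 lists overlap in every tissue.

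Several lists of tissue cells differed beside the macrophage genes. All 8 measured fibroblast genes had differences above 0 in leg, with a median of 0.44, and Postn, the matrix protein periostin, rose there (1.24, adjusted p = 0.0475 without the block and 0.0204 with it). The fibroblast sum was 127235, 141185 and 170849 in dko leg and 92198, 83865 and 181732 in mdx leg. Array 3 had the highest fibroblast sum in every group. In dko extraocular muscle, for example, the sums were 117730, 116359 and 174044. In leg and extraocular muscle of both genotypes array 3 also had the highest sum of skeletal muscle fibre genes. The fibre sums were 165510.0, 136436 and 245962 in dko leg and 118730.0, 96658 and 337143 in mdx leg. Array 3 of mdx leg was the array through which Lgals3, Lyz2, Tyrobp and Cd53 overlapped in leg. In extraocular muscle 7 of 8 fibroblast genes were above 0, with a median of 0.19. All 8 endothelial genes were below 0 in extraocular muscle (median -0.19), with sums of 13912 to 17598 in dko extraocular muscle and 16749 to 21289 in mdx extraocular muscle. In leg their sums did not overlap, at 11199 to 14143 in dko and 14556 to 15330.5 in mdx mice. Erythroid (5 genes measured) and adipocyte (6) lists had medians of -0.046 and -0.20 in extraocular muscle and -0.25 and -0.066 in leg. The 5 measured genes of glands and eye pigment, tissues that lie next to the eye muscles, were all below 0 in extraocular muscle (median -0.39), with sums of 1198 to 1523 in dko extraocular muscle and 2397 to 3145 in mdx extraocular muscle. Skeletal muscle fibre genes had medians of 0.066 in extraocular muscle and 0.13 in leg, where the skeletal actin Acta1 rose in the blocked test (1.90, adjusted p = 0.0158; 0.861 without the block). Cardiac muscle genes had medians of -0.37 in extraocular muscle and -0.13 in leg. The part of these other cells in the macrophage result was not tested.

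Of the 35 genes 13 had further probe sets, 14 in all, most of them dim. Their difference had the sign of the probe set used for 7 of 14 in extraocular muscle, 9 of 14 in leg and 9 of 14 in heart. Of the 5 that passed the filter on dim probe sets, 3 shared the sign in extraocular muscle, 4 in leg and 3 in heart. Other probe sets of Lyz2 (-0.059 in extraocular muscle and -0.16 in leg), Csf1r, Adgre1, Lcp1 and Ptprc (1 of its 2, -0.21 and -0.46) had the opposite sign in both skeletal muscles, and those of Mpeg1, Fcer1g, Fcgr1, Laptm5, Cyba, Lsp1 and the second of Ptprc the same sign. Those of Cd68 (-0.30 in extraocular muscle and 0.035 in leg) and Msr1 (-0.45 and -0.22) were opposite in extraocular muscle only.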

How the data were processed

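RNA of the 18 samples was hybridised to 1-colour Affymetrix arrays by the standard protocol, per the labels. The deposited values are linear intensities per probe set, which the authors had scaled so that each array's 2% trimmed mean is about 1501; the software was not given in the sources used here. The 37 marker genes and all other lists were chosen with earlier results of these data known. Symbols came from GEO's platform annotation.

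Of 12422 probe sets that are not controls (66 controls were left out), the 8888 that exceeded an array's 40th percentile on 3 or more of the 18 arrays were tested. Before log2, intensities were raised by 166.7 (each array's 25th percentile, then the median over arrays). Contrasts of 6 group means were tested with limma 3.58.1 in R 4.3.3 over all 18 arrays, with Benjamini-Hochberg adjustment over all probe sets tested and a threshold of 0.05. Every ± is an SE of a log2 difference unless given as SD. For differences between genotypes the SE is from the fit with the block, also where an unblocked p stands beside it. Cd14 and Spi1 are exceptions, with the SE without the block. For tissue comparisons it is from the fit whose adjusted p is given. Arrays with the same number and tissue deviated together (correlation 0.404 to 0.751, median 0.61). Arrays with the same number in different tissues gave 0.327 to 0.740 (median 0.536), while arrays of other numbers and groups gave -0.628 to 0.311. The block (number within tissue for genotype and number alone for tissue comparisons) is therefore reported beside the unblocked result. The number of arrays limits the precision.

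Values on every array are given for genes that passed a test between genotypes in either fit, for the 5 with the largest absolute log2 difference in each tissue and for the 3 with the highest mean. The values of Fcer1g and Ptprc were added after they were seen. Those of the second Laptm5 probe set in extraocular muscle also fall outside this rule. Genes of other lists are named only where they passed a test between genotypes. Alternatives were quantile and 75th percentile scaling, smaller and larger offsets, a stricter filter and none, an intensity trend, each tissue alone, other probe sets, and leaving out arrays. Figures were drawn with matplotlib 3.10.9.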

Additional observations from a re-analysis of the deposited data

How the results depend on the processing

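With the replicate block, 4 members were called in extraocular muscle, 3 in leg and 7 for the average, against 0 without it; the tissue comparisons gave 7 (mdx extraocular muscle minus leg), 7 (mdx heart minus leg), 5 (mdx extraocular muscle minus heart), 2 (dko extraocular muscle minus leg), 8 (dko extraocular muscle minus heart) and 22 (dko heart minus leg), against 3, 2, 0, 0, 3 and 16. The block changed no other call of members. Combinations with the block were chosen after seeing the data. Quantile scaling with the block gave 3, 3 and 7 for extraocular muscle, leg and average and 7, 8, 5, 2 and 8 for the first 5 tissue comparisons, 75th percentile scaling with it 4, 3, 8 and 7, 7, 5, 2, 8, and no filter with it 0, 1, 4 and 7, 8, 5, 2, 9. Without the block, mdx extraocular muscle minus heart gave 1 member with the smaller offset and 1 with the stricter filter, and dko extraocular muscle minus heart gave 5 with quantile scaling, 5 with the stricter filter and 5 with an intensity trend. Leaving out 1 array or all arrays of a number gave 0 to 0 members in extraocular muscle and heart, 0 to 1 in leg and 0 to 1 for the average (the 1 without mdx leg array 3), 0 to 3, 1 to 4 and 0 to 1 in the mdx tissue comparisons in the order above, and 0 to 0, 0 to 2 and 0 to 18 in the dko ones (extraocular muscle minus leg, extraocular muscle minus heart, heart minus leg). With the block, leaving out any number gave 0 members in every genotype comparison; fewer samples entered these fits. Over all probe sets the count went up with the block to 14 in extraocular muscle (2 without it), 107 in leg (5) and 70 for the average (8), to 1106, 2026, 1570, 674, 1650 and 2093 in the 6 tissue comparisons (357, 886, 627, 190, 681 and 951), and to 3 (extraocular muscle minus leg) and 6 (heart minus leg) for differences between tissues (0 each). It was 0 in extraocular muscle with 75th percentile scaling or the tissue alone, 3, 9, 8 and 0 in leg with the smaller offset, the larger offset, the trend and the tissue alone, and 5 for the average with quantile scaling. Genes whose dko arrays all lay above numbered 17 in extraocular muscle under either scaling, and 12 (75th percentile) and 10 (quantile) in leg. Leaving out arrays gave 18 to 23 in extraocular muscle (beside 6.07% to 13.2% of all probe sets). It gave 12 to 26 in leg (6.5% to 15.3%; 24 without array 3 of both groups, beside 15.3%) and 1 to 3 in heart (4.8% to 12%). The shares over all probe sets thus rose as well with fewer arrays. In heart up to 6 of 35 genes then had all dko arrays below (without the arrays numbered 2, beside 11.2% of all). Among called differences, other probe sets turned the direction of Csf1r in leg (-0.0078) and of Lyz2 (-0.075) and Mpeg1 (-0.0100) in the average, beside the uncalled ones given above; the cause was not tested. The heart median of the members, 0.0021, lay between -0.070 and 0.033 with 1 array left out. Signal over background limits Aif1, Fcer1g, Csf2rb and Ptpn6, which were too dim to test.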
